A study of Mus musculus with 12 samples.

Results

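The 7 genes of the INK4 and CIP/KIP families of cyclin-dependent kinase (CDK) inhibitors were followed in RNA-seq counts of mouse adult fibroblasts (MAFs), primary cells isolated from the ears of adult mice. The genes were chosen by name, with earlier results of these data known, and all 7 were found among the 49315 gene identifiers of the count tables. The CIP/KIP family was represented by Cdkn1a (p21), Cdkn1b (p27) and Cdkn1c (p57), and the INK4 family by Cdkn2a (p16 and p19Arf), Cdkn2b (p15), Cdkn2c (p18) and Cdkn2d (p19Ink4d). The study asked how senescence after irradiation differs between cells with and without BMAL1, a transcription factor of the circadian clock. WT MAFs came from C57BL6/J mice and KO MAFs from BMAL1 -/- mice, and the strain background of the KO mice is not given in the sources used here. In each genotype, control MAFs were sham irradiated and senescent MAFs received 20 Gy of X-rays and were then kept in culture. Irradiation and genotype thus gave 4 groups of 3 libraries each, named after genotype and state. All cells, controls included, grew at 3% oxygen and were given 100 nM dexamethasone, a glucocorticoid that sets the phase of the clock, for 2 hours, with collection 12 hours later. The labels do not say whether the 3 libraries of a group came from separate mice or cultures, so that p-values measure the spread between these libraries only.

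INK4 proteins bind CDK4 and CDK6 and keep them from pairing with D-type cyclins, whereas CIP/KIP proteins bind cyclin-CDK complexes and act most strongly on cyclin E-CDK2 and cyclin A-CDK2. Both routes leave the retinoblastoma proteins underphosphorylated, so that E2F factors stay repressed and the G1-to-S transition is blocked. In senescent fibroblasts p21, a target of p53, and p16 are the inhibitors most used as markers, and Cdkn2a also encodes the unrelated protein p19Arf, which protects p53 from MDM2, in another reading frame.

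Libraries held 23923030 to 31736083 counted reads, and the 3 libraries of a group correlated at r of 0.984 to 0.992 across genes. Levels are given as CPM, counts scaled to a common library size after TMM normalisation, and 3 counts, taken as the detection floor, corresponded to at most 0.125 CPM before scaling. Arntl, the gene of BMAL1, lay at 29.8 to 37.4 CPM in the 6 WT libraries and at 11.8 to 27.5 CPM in the 6 KO libraries, which did not overlap, and a count per gene does not show which exons the KO reads came from. All 12 fibroblast markers were detected, with summed levels of 39942 to 76298 CPM. The summed level of 12 proliferation markers was 2110 to 2690 CPM in the control libraries and 230 to 342 CPM in the senescent libraries. Chondrocyte markers, 10 of 10 above 3 counts in some library, summed to 8864 to 10964 CPM in WT control, 2775 to 3216 CPM in WT senescent, 6039 to 8400 CPM in KO control and 928 to 1137 CPM in KO senescent MAFs. Of these Matn1 was at or near 0 in every group and Matn3 at 0.27 CPM in KO senescent cells, while Col2a1 and Acan had group means of 447 to 4954 and 147 to 2077 CPM. Summed markers of keratinocytes, macrophages, melanocytes, skeletal muscle, endothelium and adipocytes stayed at or below 71.6 CPM for each list in every library. In bulk RNA, fewer cells of a type and less RNA per cell cannot be told apart. Each genotype was counted in a table of its own, so that genotype and any difference in handling between the tables cannot be told apart.

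All 7 inhibitors were detected in every library, and senescence did not move them one way. In WT cells 3 of 7 rose, 3 fell and Cdkn2a did not pass the test, and in KO cells 3 rose and 4 fell. A change passed when the adjusted p of edgeR's quasi-likelihood test, corrected over all 17416 genes tested, was under 0.05, and it was called when it was also over 1 on the log2 scale. Among all genes, 29.2% rose and 27% fell in WT cells, and 28.5% rose and 28.6% fell in KO cells. Of the members, 4 were called in WT cells and 6 in KO cells, against 17.4% and 18.8% of all genes. The 3 libraries of a group stood clear of the other group for 6 members in WT cells and for all 7 in KO cells, beside 63.2% and 61.6% of all genes. The members' median log2 fold change was -0.11 in WT and -0.28 in KO cells, beside 0.02 and -0.0028 over all genes.

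**Figure D1:**
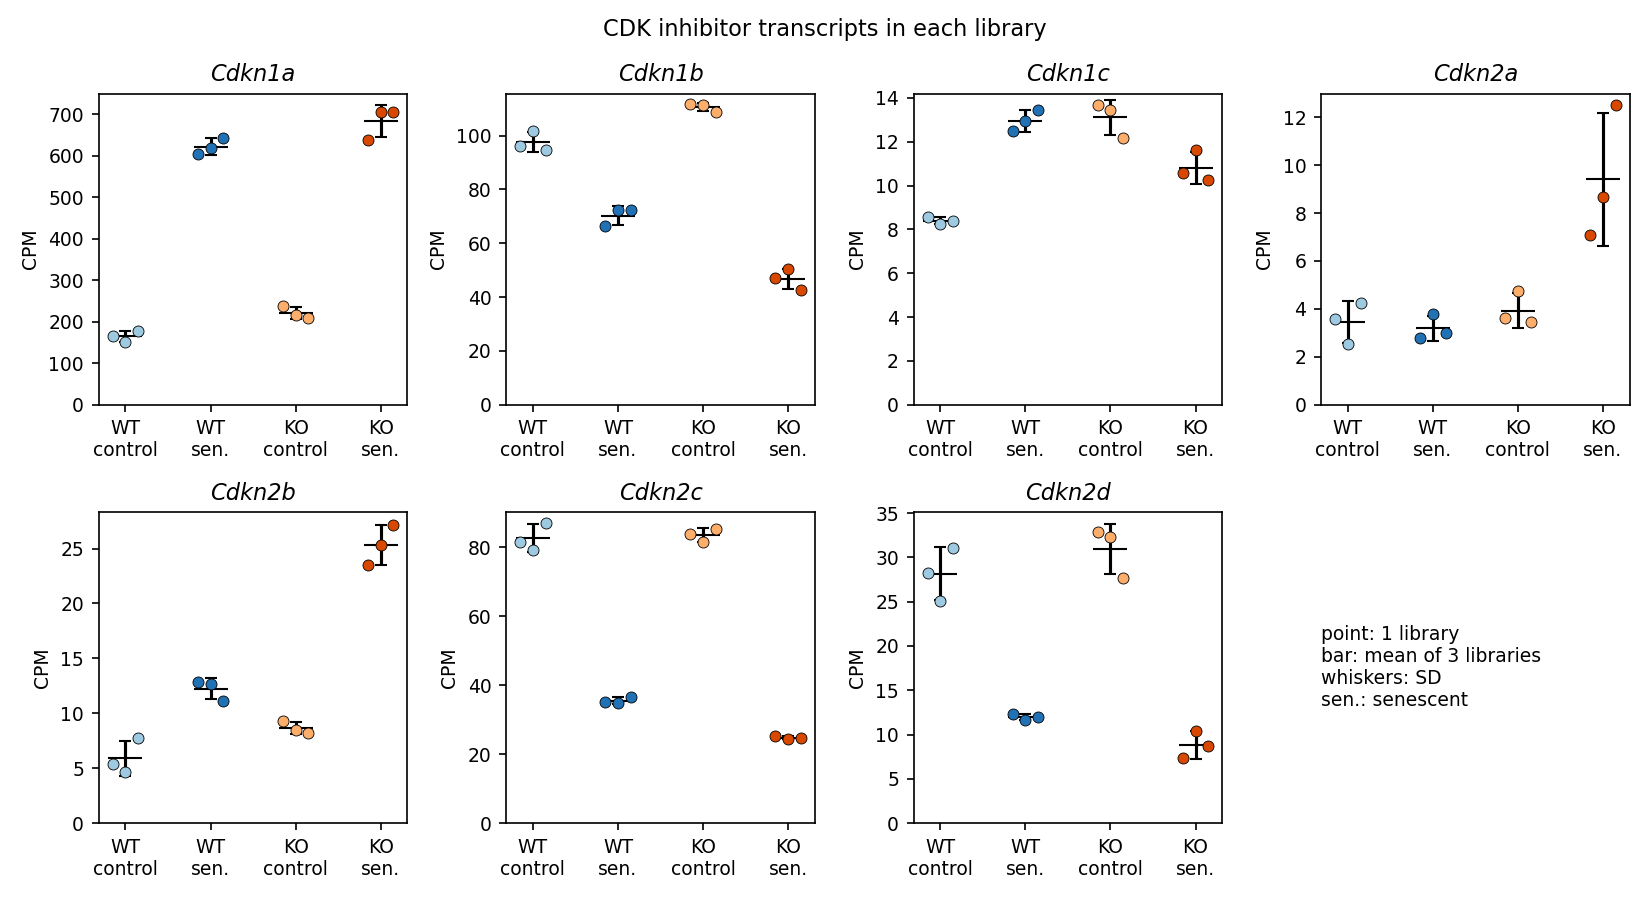
Level of each CDK inhibitor in CPM (linear axis from 0) in the 12 libraries, with points for libraries, bars for the mean of 3 libraries and whiskers for the SD. Cdkn1a and Cdkn2b stand higher in both senescent groups, Cdkn1b, Cdkn2c and Cdkn2d lower, and Cdkn2a stands apart only in KO senescent libraries, at 7.10 to 12.5 CPM.

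Cdkn1a encodes p21, which binds cyclin-CDK2 complexes and PCNA (ENSMUSG00000023067, GRCm38 chr17:29090976-29100727, plus strand, 4 merged exon blocks of 3553 bases). It lay at 165, 152 and 178 CPM in the WT control libraries and at 604, 619 and 643 CPM in the WT senescent libraries. The KO control libraries held 238, 217 and 208 CPM and the KO senescent libraries 638, 705 and 705 CPM. Every senescent library was therefore above every control library, while the senescent groups of the 2 genotypes overlapped. In WT cells Cdkn1a rose by 1.92 ± 0.06 on the log2 scale (SE; adjusted p = 1.19e-15), a 3.78-fold increase, and in KO cells by 1.63 ± 0.06 (adjusted p = 7.62e-15), a 3.09-fold increase. The increase was smaller in KO cells by 0.29 ± 0.09 (adjusted p = 0.0234). That difference did not pass without WT control replicate 1 (adjusted p = 0.0505), WT control replicate 2 (0.0615), WT senescent replicate 3 (0.0703) or KO senescent replicate 1 (0.0638). KO control cells already held more Cdkn1a than WT control cells, by 0.42 ± 0.06 on the log2 scale (adjusted p = 7.9e-05). In senescent cells the genotype difference was 0.13 ± 0.06 (adjusted p = 0.125), with a 95% interval of 0.01 to 0.26 before correction for the number of genes. It passed without KO senescent replicate 1 (0.18, adjusted p = 0.0484). The exons of Cdkn1a overlap a transcript model still to be experimentally checked on the other strand over 273 bases, and the use of strand in counting is not given in the sources used here.

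Cdkn1b encodes p27, which binds cyclin E-CDK2 and is held high in resting cells mainly through its slow breakdown (ENSMUSG00000003031, chr6:134920401-134925513, plus strand, 2 exon blocks of 4552 bases). Its levels were 96.2, 102 and 94.8 CPM in WT control and 66.3, 72.3 and 72.2 CPM in WT senescent libraries. They were 112, 111 and 109 CPM in KO control and 47.1, 50.3 and 42.7 CPM in KO senescent libraries. The 4 groups did not overlap, with KO control highest and KO senescent lowest. Cdkn1b fell with senescence by 0.47 ± 0.06 in WT cells (adjusted p = 6.21e-07) and by 1.24 ± 0.06 in KO cells (adjusted p = 2.32e-13), so that the change in KO cells was more negative by -0.77 ± 0.08 (adjusted p = 5.93e-06). KO senescent cells held less Cdkn1b than WT senescent cells (-0.59 ± 0.06, adjusted p = 4.97e-07). In control cells it was higher in KO by 0.18 ± 0.06 (adjusted p = 0.0449). That result did not pass under 5 other settings or without any 1 of 8 libraries (adjusted p up to 0.149). The settings include the replicate block within each genotype, which compared the genotypes at replicate 1 only. The exceptions among the libraries were WT control replicate 2, WT senescent replicate 1 and KO senescent replicates 2 and 3.

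Cdkn1c encodes p57, the family member expressed from the maternal allele of an imprinted region and known for cell cycle exit in development (ENSMUSG00000037664, chr7:143458339-143461050, minus strand, 4 exon blocks of 2039 bases). It lay at 8.57, 8.22 and 8.40 CPM in WT control and at 12.5, 12.9 and 13.5 CPM in WT senescent libraries. In KO cells the levels were 13.7, 13.5 and 12.2 CPM in control and 10.6, 11.6 and 10.2 CPM in senescent libraries. The KO control libraries overlapped with the WT senescent libraries, and the direction of change differed between the genotypes. Cdkn1c rose by 0.63 ± 0.10 in WT cells (adjusted p = 1.48e-05) and fell by 0.28 ± 0.10 in KO cells (adjusted p = 0.0172), a difference of -0.90 ± 0.14 (adjusted p = 0.000132). The decrease in KO cells did not pass when libraries were scaled by their totals (-0.13, adjusted p = 0.265) or upper quartiles (-0.20, adjusted p = 0.0815), or when KO control replicate 1 or 2 was left out, or replicate 1 or 3 of the KO senescent cells (adjusted p = 0.0555 to 0.0639). The difference between the genotypes passed in each of these settings. In control cells Cdkn1c was higher in KO by 0.64 ± 0.10 (adjusted p = 0.000118), and in senescent cells it differed by -0.26 ± 0.10 (adjusted p = 0.0532). An antisense gene, Gm44732, overlaps 625 bases of its exons and held 0 to 3 counts per library, against 186 to 400 for Cdkn1c. As the use of strand in counting is not given, these counts cannot show how the overlap affected the level of Cdkn1c.

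Cdkn2c encodes p18, an INK4 inhibitor whose transcription is tied to the dividing cell through E2F (ENSMUSG00000028551, chr4:109660876-109667189, minus strand, 3 exon blocks of 2686 bases). It lay at 81.4, 79.3 and 87.0 CPM in WT control and at 35.1, 34.9 and 36.6 CPM in WT senescent libraries. The KO control libraries held 83.9, 81.5 and 85.3 CPM and the KO senescent libraries 25.1, 24.4 and 24.8 CPM. Control groups overlapped between the genotypes, whereas the senescent groups lay far apart for the narrow spread of this gene. Cdkn2c fell by 1.22 ± 0.06 in WT cells (adjusted p = 9.48e-14) and by 1.75 ± 0.06 in KO cells (adjusted p = 5.08e-16), with a difference of -0.54 ± 0.08 (adjusted p = 8.45e-05). Between the control groups the difference was 0.02 with a 95% interval of -0.09 to 0.13 (adjusted p = 0.887), and between the senescent groups -0.52 ± 0.06 (adjusted p = 1.31e-06).

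Cdkn2d encodes p19Ink4d, which like p18 varies with the cell cycle in dividing cells (ENSMUSG00000096472, chr9:21288410-21291407, minus strand, 3 exon blocks of 1574 bases). It lay at 28.3, 25.1 and 31.1 CPM in WT control and at 12.3, 11.7 and 12.0 CPM in WT senescent libraries. In KO cells it held 32.9, 32.3 and 27.6 CPM in control and 7.33, 10.4 and 8.75 CPM in senescent libraries. Its pattern over the 4 groups ran as for Cdkn2c, with a wider spread. Cdkn2d fell by 1.23 ± 0.11 in WT cells (adjusted p = 3.68e-09) and by 1.81 ± 0.11 in KO cells (adjusted p = 1.12e-11), with a difference of -0.57 ± 0.15 (adjusted p = 0.0109). Senescent KO cells held less of it than senescent WT cells (-0.44 ± 0.12, adjusted p = 0.00815), which did not pass without KO senescent replicate 1 (-0.32, adjusted p = 0.0525). Between the control groups the difference was 0.14, with a 95% interval of -0.07 to 0.35 (adjusted p = 0.425). The proliferation markers were also lower in KO than in WT senescent libraries, at 230 to 257 against 311 to 342 CPM, and their part in the values of Cdkn2c and Cdkn2d was not tested.

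Cdkn2a lies beside Cdkn2b on chromosome 4 and is read from a pair of promoters (ENSMUSG00000044303, chr4:89274471-89294653, minus strand, 4 exon blocks of 1172 bases). The distal start gives the Arf transcript and the proximal start, 12427 bases downstream, the Ink4a transcript, and both share the exons that follow their own first exon. A count per gene adds them up, so that p16 and p19Arf cannot be told apart in these values. The promoters are shown because they differ in make-up. The stretches are from RefSeq on GRCm38.p6, 5′ to 3′ on the minus strand, at chr4:89294654-89294869 for Arf and chr4:89282193-89282442 for Ink4a, with capitals for a match to the E2F motif TTTCCCGC. The Ink4a stretch runs up to the RefSeq start, and the Arf stretch ends where the GENCODE gene begins, leaving out the last 34 bases before the RefSeq start.
Cdkn2a Arf promoter: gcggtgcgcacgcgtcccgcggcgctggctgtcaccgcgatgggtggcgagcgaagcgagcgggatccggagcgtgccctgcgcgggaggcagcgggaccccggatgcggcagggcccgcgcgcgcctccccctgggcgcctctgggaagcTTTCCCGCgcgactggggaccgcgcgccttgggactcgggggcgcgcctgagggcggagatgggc
Cdkn2a Ink4a promoter: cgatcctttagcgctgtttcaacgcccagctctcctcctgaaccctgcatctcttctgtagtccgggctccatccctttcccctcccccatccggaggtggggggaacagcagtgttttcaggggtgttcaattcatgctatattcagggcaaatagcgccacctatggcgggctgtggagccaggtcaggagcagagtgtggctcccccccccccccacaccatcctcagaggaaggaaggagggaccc
The Arf stretch of 216 bases was 78.7% G and C with 35 CpG pairs, and the Ink4a stretch of 250 bases was 60.0% G and C with 7 CpG pairs.

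Cdkn2a held 62 to 370 reads per library and had the lowest counts of the 7 in 3 of the 4 groups. It lay at 3.58, 2.52 and 4.24 CPM in WT control and at 2.79, 3.77 and 3.01 CPM in WT senescent libraries. In KO cells it held 3.60, 4.75 and 3.43 CPM in control and 7.10, 8.65 and 12.5 CPM in senescent libraries. The first 3 groups overlapped, and every KO senescent library was above all of them. In WT cells the change was -0.11 ± 0.23 with a 95% interval of -0.60 to 0.38 (adjusted p = 0.723), and its sign turned with libraries scaled by their totals (0.06) and without WT control replicate 3 (0.06). By qPCR the study reported an increase of p16 in irradiated WT cells and a similar one in KO cells. That measure was named for p16, whereas the counts here also take in p19Arf. In KO cells Cdkn2a rose by 1.26 ± 0.22 (adjusted p = 5.05e-05), a 2.39-fold increase. The change was larger in KO than in WT cells by 1.36 ± 0.32 (adjusted p = 0.00473), and KO senescent cells exceeded WT senescent cells by 1.56 ± 0.22 (adjusted p = 3.05e-05). Without KO senescent replicate 3, the highest library, the change in KO cells was 0.995 (adjusted p = 0.000448) and fell just short of being called. In control cells the genotypes differed by 0.20, with a 95% interval of -0.28 to 0.68 (adjusted p = 0.651).

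Cdkn2b encodes p15, an INK4 inhibitor known as a target of TGF-beta signalling (ENSMUSG00000073802, chr4:89306299-89311039, minus strand, 2 exon blocks of 1390 bases). Its levels were 5.35, 4.64 and 7.72 CPM in WT control and 12.9, 12.7 and 11.2 CPM in WT senescent libraries. They were 9.32, 8.45 and 8.24 CPM in KO control and 23.5, 25.3 and 27.2 CPM in KO senescent libraries. The 4 groups did not overlap, and they stood in the order WT control, KO control, WT senescent and KO senescent. With senescence Cdkn2b rose by 1.06 ± 0.14 in WT cells (adjusted p = 1.23e-06) and by 1.55 ± 0.13 in KO cells (adjusted p = 1.44e-09). The increase in WT cells passed but was not called without WT control replicate 1 (0.99) or 2 (0.91). The changes differed by 0.49 ± 0.19 between the genotypes (95% interval 0.10 to 0.88, adjusted p = 0.071), which passed without WT control replicate 2 (0.63, adjusted p = 0.0145), with no filter on low counts (adjusted p = 0.0348) and in DESeq2 (adjusted p = 0.0456). KO cells held more Cdkn2b than WT cells in senescence (1.05 ± 0.12, adjusted p = 3e-06), which passed but was not called without WT senescent replicate 3 (0.99) or KO senescent replicate 3 (0.997). They also held more of it in control cells (0.56 ± 0.14, adjusted p = 0.0111), which did not pass without WT control replicate 1 (0.50, adjusted p = 0.0696) or 2 (0.42, adjusted p = 0.0608).

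**Figure D2:**
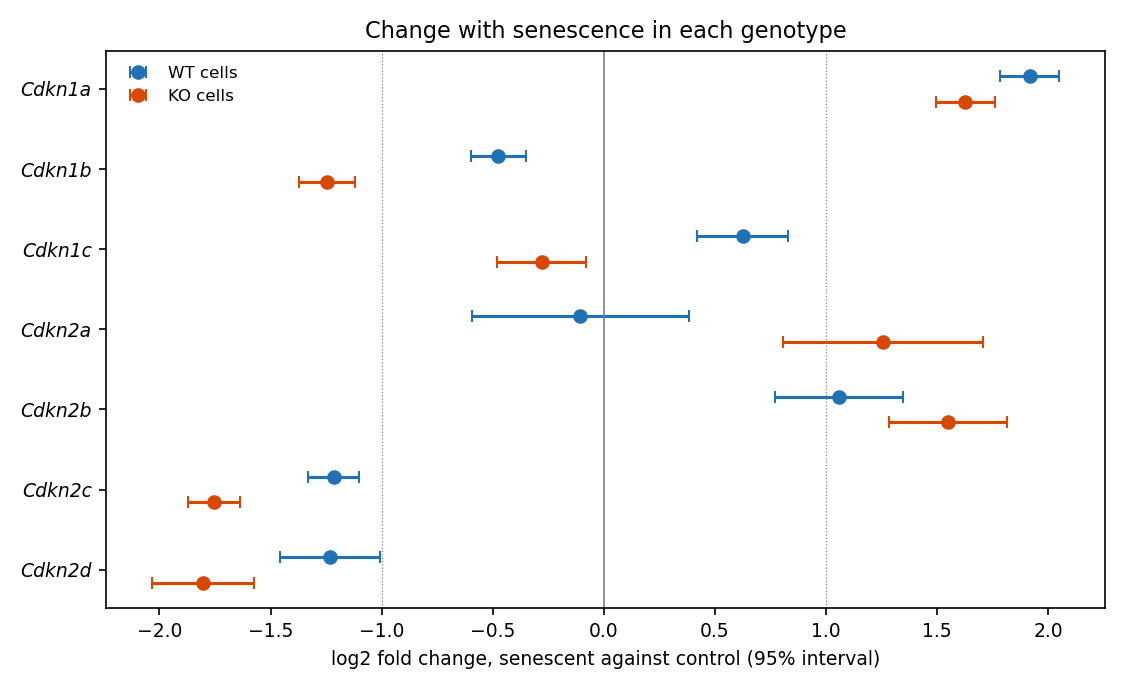
Log2 fold change from control to senescent cells for each CDK inhibitor in WT and KO cells, with 95% intervals derived from edgeR's quasi-likelihood test. The interval of Cdkn2a in WT cells, -0.60 to 0.38, spans 0, and Cdkn1c lies on opposite sides of 0 in the 2 genotypes.

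The effect of senescence differed between the genotypes for 6 of 7 members, with a more negative value in KO cells for Cdkn1a, Cdkn1b, Cdkn1c, Cdkn2c and Cdkn2d and a more positive one for Cdkn2a. Among all genes 11.7% passed in the negative and 9.24% in the positive direction, and 3.66% were called, as was 1 member, Cdkn2a. The members' median difference was -0.54, beside -0.03 over all genes. Within the INK4 family the neighbours Cdkn2a and Cdkn2b had positive values, of which that of Cdkn2a passed, and Cdkn2c and Cdkn2d negative ones. The changes of the chondrocyte markers were also more negative in KO cells, 9 of 9 tested passing in that direction. The part of these markers in the differences of the members was not tested.

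The genotypes were then compared within each state. In control cells, 4 of 7 members were higher in KO and none lower, beside 8.07% and 4.96% of all genes, and no member was called, beside 2.54%. These 4 were Cdkn1a, Cdkn1b, Cdkn1c and Cdkn2b, and they were also the 4 whose libraries did not overlap, beside 25.9% of all genes. In senescent cells 2 members were higher in KO, Cdkn2a and Cdkn2b, and 3 lower, Cdkn1b, Cdkn2c and Cdkn2d, beside 11.9% and 11.8% of all genes. Both higher members were called, beside 3.48% of all genes, and 6 members did not overlap between the genotypes, beside 42% of all genes. The medians were 0.20 in control and -0.26 in senescent cells, beside 0.01 and -0.02 over all genes. Cdkn1b alone passed in opposite directions, higher in KO controls and lower in KO senescent cells. Its control difference (0.18, adjusted p = 0.0449 in edgeR's test) did not pass under several other settings, as given above. With each library left out in turn, 2 to 4 members were higher in KO controls. The comparisons share libraries with those of senescence and are not independent of them.

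**Figure D3:**
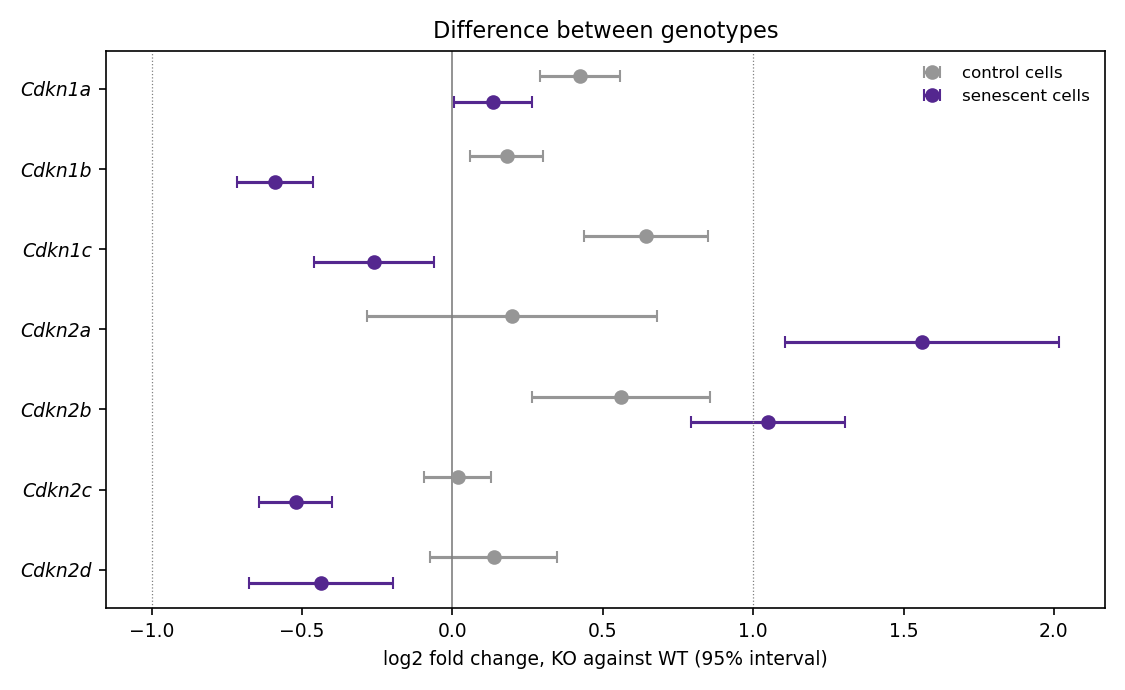
Log2 fold change of KO against WT for each CDK inhibitor in control and in senescent cells, with 95% intervals derived from edgeR's quasi-likelihood test. Cdkn2a and Cdkn2b lie at 1.56 and 1.05 in senescent cells, and Cdkn1b, Cdkn2c and Cdkn2d lie below 0 there.

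To compare levels between genes, CPM was divided by the length of the merged exons. Cdkn1a was the highest member per kilobase in every group, at 46.4 ± 3.6 CPM per kb in WT control, 175 ± 5 in WT senescent, 62.2 ± 4.3 in KO control and 192 ± 11 in KO senescent cells (SD, n = 3). In both control groups it was followed by Cdkn2c, Cdkn1b and Cdkn2d, whose libraries did not overlap with their neighbours in the order. Cdkn2b, Cdkn1c and Cdkn2a came last in both, and Cdkn2b and Cdkn1c overlapped with each other. In WT senescent cells the order was Cdkn1a, Cdkn1b, Cdkn2c, Cdkn2b, Cdkn2d, Cdkn1c and Cdkn2a, with no overlap between neighbours. In KO senescent cells Cdkn2b stood in place 2, at 18.2 ± 1.3 CPM per kb, and Cdkn1b in place 3, at 10.3 ± 0.8. The remaining neighbours, Cdkn2c, Cdkn2a, Cdkn2d and Cdkn1c, overlapped from one to the next, and with the longest transcript as the length only 4 of 7 members kept their place in this group and 5 of 7 in WT control cells. Cdkn1a made up 36.3% ± 0.6 of the summed level of the 7 genes in WT control and 40.6% ± 1.1 in KO control cells, against 76.4% ± 0.5 and 77.2% ± 0.2 in senescent cells.

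The make-up of the INK4 family differed between the groups. Its summed level was 55.8 ± 5.2 CPM per kb in WT control, 32.4 ± 0.5 in WT senescent, 60.3 ± 1.9 in KO control and 41.1 ± 4.0 in KO senescent cells. Cdkn2c and Cdkn2d together gave 48.6 ± 3.3 CPM per kb in the control WT and 50.8 ± 1.4 in the control KO cells, against 20.8 ± 0.4 and 14.8 ± 0.8 in the senescent WT and KO cells. Cdkn2a and Cdkn2b gave 7.19 ± 1.86 and 9.59 ± 0.66 in the control groups, and 11.5 ± 0.9 and 26.3 ± 3.7 in the senescent groups. As a share of the family, the pair Cdkn2a and Cdkn2b took 12.8% ± 2.1 in WT control, 35.6% ± 2.2 in WT senescent, 15.9% ± 0.7 in KO control and 63.8% ± 3.0 in KO senescent cells. The senescent libraries of both genotypes stood above all control libraries, and all KO senescent libraries (62.0% to 67.2%) above all WT senescent libraries (33.3% to 37.7%). The ratio of Cdkn2b to Cdkn2a per length was 1.26 to 1.55 in WT control, 2.83 to 3.90 in WT senescent, at most 2.18 in KO control and 1.83 to 2.80 in KO senescent libraries. These shares and sums are descriptions, without a test.

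**Figure D4:**
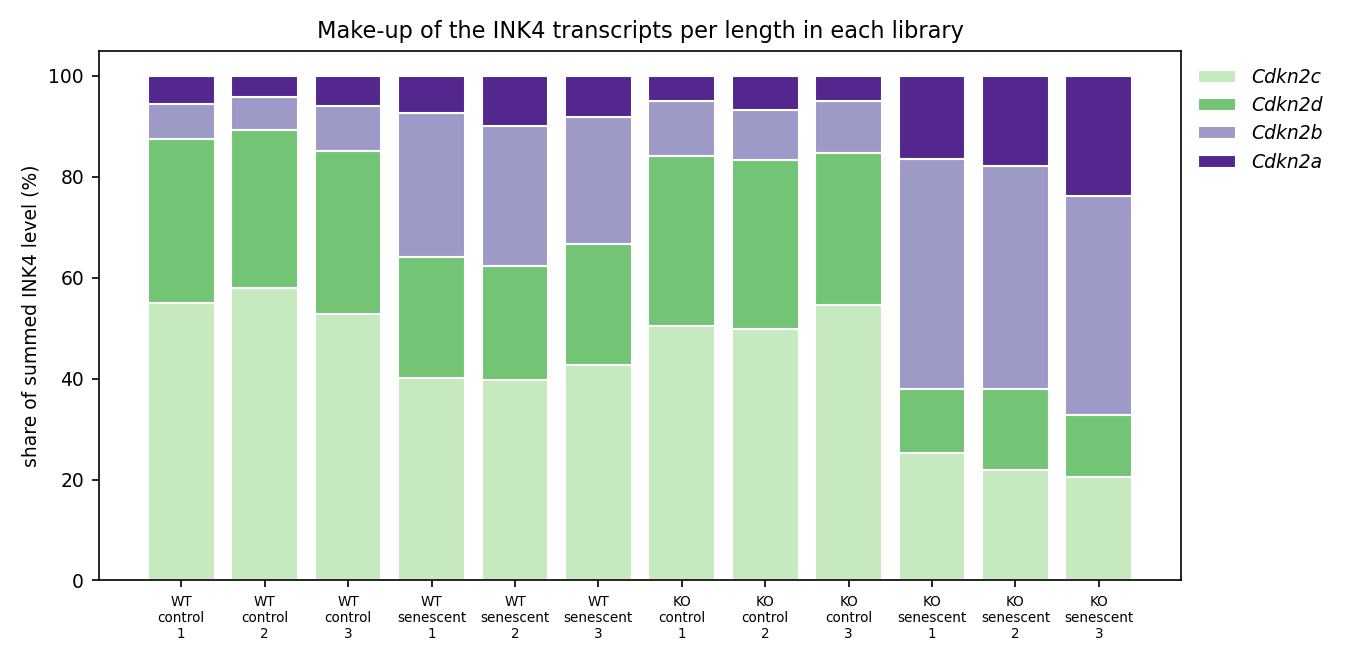
Share of each INK4 gene in the summed INK4 level (CPM per kilobase of exon, in percent) in each of the 12 libraries, 3 per group. The purple part, Cdkn2b and Cdkn2a, takes 10.8% to 16.6% of the bar in control libraries, 33.3% to 37.7% in WT senescent and 62.0% to 67.2% in KO senescent libraries.

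Promoter windows of 250 bases before to 50 bases after a start were searched for 6 motifs on both strands. RefSeq windows on GRCm38.p6 matched 6 members, with 9 windows in all, and none matched Cdkn1c. The E-box CACGTG, which CLOCK and BMAL1 can bind, was found in 1 of 9 windows, beside 7.15% of all 32851 promoter windows. It lay 35 bases into the transcript of the second start of Cdkn2c, within exon sequence at chr4:109665323-109665352, minus strand, and the stretch is shown with the E-box in capitals.
Cdkn2c E-box: ttttgctgaataatCACGTGtgaatcgagg
The AP-1 motif TGANTCA was in 0 of 9 windows (7.81% of all). The E2F motif TTTCCCGC was in 1 of 9 (1.07% of all), the Arf window of Cdkn2a printed in part above, where it begins at position -99 counted from the RefSeq start. The GC box GGGCGG was in 7 of 9 windows (35.7% of all), CCAAT in 4 of 9 (37.4%) and TATAAA in 0 of 9 (13.6%). A match describes letters in these windows and not binding.

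The partners and targets of the inhibitors were read from lists of genes, with counts over all members of a list. Among all genes, 29.2% rose and 27% fell in WT cells, and 28.5% rose and 28.6% fell in KO cells. The counts of every list stand beside these shares. Of 11 G1 cyclins and kinases, 2 rose and 5 fell in WT and 2 rose and 6 fell in KO cells (median -0.06 and -0.16). The 2 that rose were Ccnd1 and Ccnd2, D-type cyclins that CDK4 and CDK6 need. Ccnd1 went from 267 to 711 CPM in WT (1.41, adjusted p = 1.08e-13) and from 261 to 1041 CPM in KO cells (2.00, adjusted p = 6.44e-16), and its increase was larger in KO cells by 0.58 (adjusted p = 0.000143). Ccne2, a cyclin E, fell in WT (-2.63) and in KO cells (-2.89), and so did Cdk2 (-1.94 and -2.34). All 5 S and M phase cyclins and kinase fell in both genotypes, with medians of -2.90 and -3.53. The median of the G1 list turned positive in WT cells under upper-quartile scaling (0.02) and scaling by library totals (0.11).

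Of 13 pocket proteins and E2F factors, 2 rose and 10 fell in WT cells and 2 rose and 9 fell in KO cells (median -0.59 and -0.54). Rb1 and Rbl2, which encode the retinoblastoma protein and p130, rose in WT cells by 0.98 (adjusted p = 9.28e-11) and 0.74 (adjusted p = 6.25e-09). In KO cells the change was 0.12 for Rb1 (adjusted p = 0.126) and 0.16 for Rbl2 (adjusted p = 0.0453), and it was more negative than in WT cells by -0.86 (adjusted p = 7.73e-06) and -0.58 (adjusted p = 0.000235). E2f7 and E2f8, repressors among the E2F factors, fell in WT (-3.89 and -3.70) and in KO cells (-4.30 and -4.09).

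Of 10 genes matched for the breakdown of CIP/KIP proteins, 2 rose and 7 fell in WT and 3 rose and 6 fell in KO cells (median -0.33 and -0.25). Skp2, the F-box protein that marks p27 for breakdown, fell from 48.1 to 9.19 CPM in WT (-2.38, adjusted p = 7.97e-14) and from 43.8 to 10.2 CPM in KO cells (-2.11, adjusted p = 3.95e-13). Dtl, which recruits p21 to a ligase on chromatin, fell in WT (-2.46) and in KO cells (-2.88). Cdkn1b transcripts and those of Skp2 thus both fell, and protein levels were not measured here.

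Of 15 genes of the p53 axis, which drives Cdkn1a, 11 rose and 3 fell in WT and 10 rose and 4 fell in KO cells, with medians of 1.00 and 0.67. The effect was more negative in KO cells for 7 of 15 and more positive for none, beside 11.7% and 9.24% of all genes, with a median difference of -0.39, beside -0.03 over all genes. Trp53inp1, a p53 target, rose by 2.34 with irradiation of WT cells and by 1.40 with that of KO cells (difference -0.94, adjusted p = 2.89e-07). In control cells 7 of the 15 were higher in KO and none lower, beside 8.07% and 4.96% of all genes, and Cdkn1a was higher too. The part of the p53 axis in the values of Cdkn1a was not tested. Mdm2, the ligase for p53, rose by 1.63 and 1.52, with a difference of -0.11 (adjusted p = 0.405).

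Of 16 Polycomb genes, whose products silence the Cdkn2a and Cdkn2b locus in young cells, 5 rose and 3 fell in WT and 4 rose and 7 fell in KO cells (median 0.06 and -0.21). The shares of all genes were 29.2% and 27% in WT and 28.5% and 28.6% in KO cells. Ezh2, the main methyltransferase, fell by 1.96 on the log2 scale in both genotypes, with group means of 74.3 and 19.2 CPM in control and senescent WT cells and of 72.5 and 18.7 CPM in control and senescent KO cells. Its change differed by -0.0015 ± 0.11 between the genotypes (adjusted p = 0.995). Cbx7 rose by 1.36 and 1.02, with a difference of -0.33 (adjusted p = 0.541), and Cbx2 fell in WT (-1.36) and in KO cells (-1.56). The effect differed between the genotypes for 3 of 16, near the share of all genes (9.24% more positive and 11.7% more negative in KO cells). It was more positive in KO cells for Phc2 (0.36, adjusted p = 0.0172) and more negative for Cbx6 (-0.67, adjusted p = 3.3e-05) and Pcgf2 (-0.45, adjusted p = 0.012).

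Of 20 genes known to activate or repress transcription of the members, 6 rose and 7 fell in WT and 6 rose and 10 fell in KO cells. The shares of all genes were 29.2% and 27% in WT and 28.5% and 28.6% in KO cells, and the WT counts lay near them. The medians were -0.01 and -0.04 and turned positive under upper-quartile scaling and scaling by library totals. Ets2, an activator of Ink4a, fell in WT (-0.76) and in KO cells (-1.37) (difference -0.61, adjusted p = 0.00163). Myc, a repressor of Cdkn1a and Cdkn2b through Zbtb17 (MIZ1), fell by 0.50 in WT cells and rose by 0.38 in KO cells (difference 0.88, adjusted p = 0.000633). Foxo3, an activator of Cdkn1b, rose by 0.99 in WT and 0.55 in KO cells (difference -0.44, adjusted p = 0.000466). Of 3 neighbours of the Cdkn2a and Cdkn2b locus only Mtap was expressed highly enough to be tested. It fell by 0.62 in WT cells (adjusted p = 8.16e-06) and changed by -0.17 in KO cells (adjusted p = 0.0885), with a difference of 0.45 (adjusted p = 0.0125), and in senescent cells it was higher in KO than in WT by 0.48 (adjusted p = 0.000452), as were Cdkn2a and Cdkn2b. Of 5 neighbours of Cdkn1c, 3 rose and 2 fell in each genotype, with medians of 2.35 in WT and 1.63 in KO cells. Among those that fell was Kcnq1ot1, the non-coding RNA of the imprinted domain (-0.79 in WT and -0.72 in KO cells). None of the 5 neighbours passed the test of a difference between the genotypes.

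**Figure D5:**
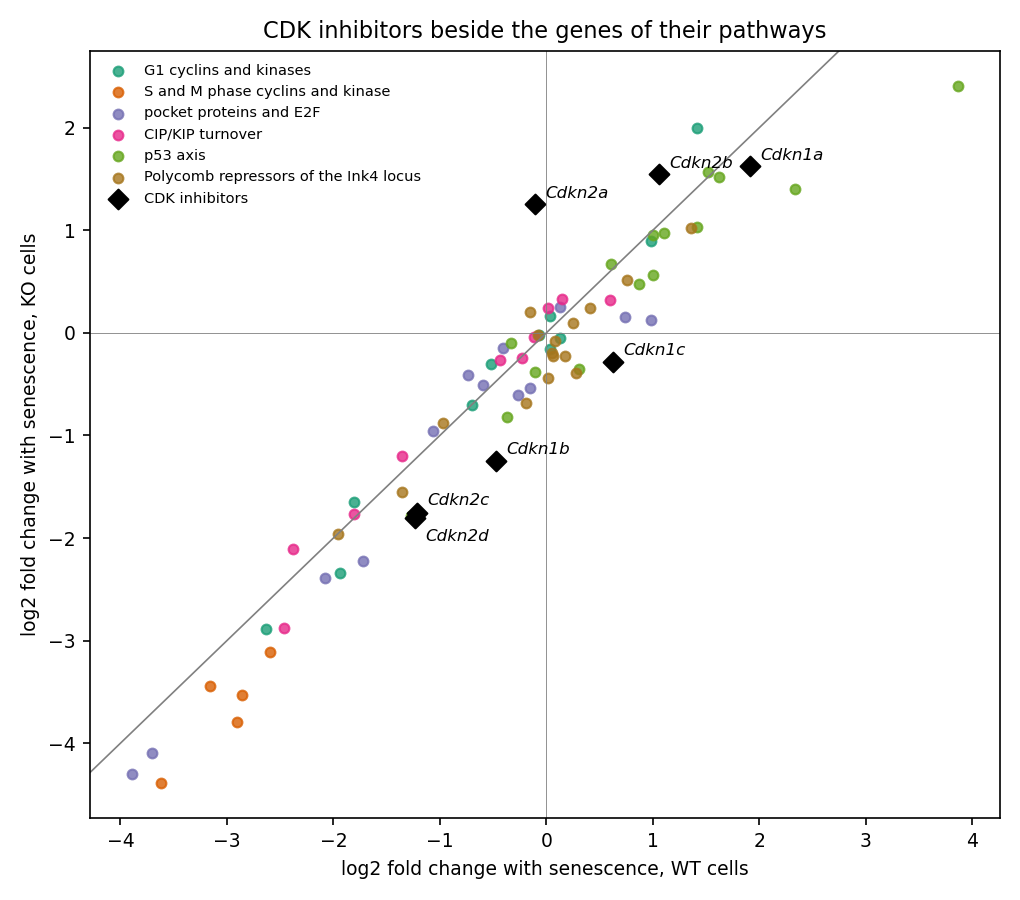
Log2 fold change with senescence in WT cells (x axis) and KO cells (y axis) for the 7 CDK inhibitors (black diamonds) and the genes of 6 pathway lists (coloured points), with the line of equal change in grey. Cdkn2a lies above the line at -0.11 and 1.26, and Cdkn1c and Cdkn1b lie below it.

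For each member, the 3 genes with the most similar log2 CPM over the 12 libraries were found by Pearson's r among the 10945 or 10946 other genes that averaged 5 CPM or more. The libraries fall into 4 groups, so that r describes likeness of the group pattern and carries no test. Cdkn1a was most like Nbl1, Inhbb and Zmat3 (r of 0.996 to 0.997), of which Zmat3 is a p53 target. Cdkn2c was most like Troap, Ccnl2 and Ankle1 (r of 0.997), and Cdkn2d like Hnrnpr, Nsl1 and Ckap2 (r of 0.992). Ckap2, like Zmat3, was on the list of the p53 axis. Cdkn1b was most like Zmynd8, Slc27a3 and Stat3 (r of 0.989 to 0.991), and Cdkn2b like Kif5b, Capn1 and Adam15 (r of 0.987 to 0.988). The likeness was looser for Cdkn2a, with Cth, Sh3glb1 and Necap2 (r of 0.946 to 0.960), and for Cdkn1c, with Lix1l, Mab21l2 and Prrx2 (r of 0.935 to 0.943). Between members, r was 0.98 for Cdkn2c and Cdkn2d, 0.80 for Cdkn2a and Cdkn2b and 0.50 for Cdkn1a and Cdkn2a. Likeness also crossed the families, with r of 0.96 for Cdkn1b and Cdkn2c, 0.95 for Cdkn1b and Cdkn2d and 0.88 for Cdkn1a and Cdkn2b. Opposite patterns gave -0.96 for Cdkn1a and Cdkn2c and -0.90 for Cdkn1b and Cdkn2b.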

How the data were processed

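The authors deposited whole-number counts per gene in 2 tables, 1 per genotype. Per the methods and labels, poly(A) RNA was made into NEBNext Ultra II libraries and sequenced as paired reads, converted with bcl2fastq 2.17, trimmed with Trimmomatic 0.36, mapped to GRCm38 with STAR 2.5.2b and counted with featureCounts over exons, unique reads only. Strand use and annotation release are not given in the sources used here, so that counts of overlapping genes are uncertain. Reads shared with near-identical copies were dropped.

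The tables were joined on identifier, and 48970 of 49315 identifiers had an entry in GENCODE vM21 (GRCm38), which gave symbols, coordinates and merged exon lengths. Genes were filtered with filterByExpr, scaled with TMM and fitted with 1 mean per group by edgeR 4.0.16 (robust quasi-likelihood, R 4.3.3), with Benjamini-Hochberg adjustment over 17416 genes and thresholds of 0.05 and 1 (log2). The SE of a log2 fold change was derived as its size divided by the square root of the F statistic of that test. The 95% intervals were built from this SE with a quantile of the t distribution. Library totals were 23923030 to 31736083 counts, and the precision of each value is set by its counts and by 3 libraries per group. Coordinates are 1-based. Motifs may overlap each other. The exact permutation test for 3 against 3 libraries cannot go below 0.1 and was not used. Alternatives were DESeq2 1.42.0, limma-voom (limma 3.58.1), other scalings and filters, replicate blocks, only the compared groups, and each library left out. Named genes were the 7 members, the 2 largest passing changes in each direction per list for each senescence comparison and the interaction, Arntl, and the 3 most similar genes per member. Mdm2 and the chondrocyte markers were named after their values were seen. The members and lists were chosen with earlier results of these data known.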

Additional observations from a re-analysis of the deposited data

Results flagged for a closer look

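The change with senescence differed between WT and KO cells, by edgeR's test of the interaction, for 6 members. The log2 difference, KO minus WT, was -0.29 for Cdkn1a, -0.77 for Cdkn1b, -0.90 for Cdkn1c, 1.36 for Cdkn2a, -0.54 for Cdkn2c and -0.57 for Cdkn2d. Each rests on 3 libraries per group. With each library left out in turn, the adjusted p of the Cdkn1a difference ran from 0.00746 to 0.0703 and was over 0.05 in the absence of KO senescent replicate 1, of replicate 3 among the WT senescent cells, or of replicate 1 or 2 among the WT controls, and the other 5 passed each time.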

How the results depend on the processing

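Of 763 values of members under 22 alternatives, 721 kept their direction and side of the threshold, 28 no longer passed, 10 passed newly and 4 turned sign; the cause was not tested. Changes are log2 and tests edgeR's unless named. Scaling by library totals shifted the median of all genes by 0.17 in WT and 0.15 in KO senescence and the higher share of passing genes from 52.0% to 68.5% and from 49.9% to 64.9%, that of called genes in WT senescence from 66.2% to 76.8%, and for genotype in senescent cells the passing share from 50.4% to 40.1%. Cdkn2a in WT senescence turned to 0.065 (-0.10 relative to that shift), Cdkn2c between controls to -0.0020, and Cdkn1c in KO senescence became -0.13 (-0.28 relative to the shift), or -0.20 with upper quartiles. Cdkn1b between controls no longer passed with DESeq2 size factors (0.18), upper quartiles (0.17), library totals (0.16) and a mean of at least 1 CPM (0.17). Nor did it pass with the replicate block within each genotype (0.25, at replicate 1 only). Cdkn1c between senescent groups passed with upper quartiles (-0.27), library totals (-0.30), a mean of at least 1 CPM (-0.25) and limma-voom (-0.26), and Cdkn1a there with only the compared groups (0.14). The Cdkn2b interaction passed without a filter (0.48) and in DESeq2 (0.52), giving 2 members higher. With only the compared groups Cdkn2b between controls did not pass (0.56), and 273 genes were called. With a mean of at least 1 CPM, 2182 genes were called in KO senescence, against 3278.

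With each library left out, the values ranged from -0.35 to -0.23 for the Cdkn1a interaction, 0.11 to 0.18 for Cdkn1a and -0.32 to -0.22 for Cdkn1c between senescent groups, 0.16 to 0.21 for Cdkn1b, 0.42 to 0.80 for Cdkn2b and -0.010 to 0.060 for Cdkn2c between controls, -0.34 to -0.24 for Cdkn1c in KO and -0.29 to 0.06 for Cdkn2a in WT senescence, 0.25 to 0.63 for the Cdkn2b interaction, and -0.57 to -0.32 for Cdkn2d between senescent groups. Between controls, 2 to 4 members and 1408 to 2491 genes passed and 283 to 753 were called, and 1 to 2 members were higher in the interaction. Cdkn2c turned to -0.010 without WT control replicate 2 and Cdkn2a to 0.063 without WT control replicate 3.

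Replicate numbers were shared by the groups. Deviations of same-numbered libraries correlated at -0.125 to 0.127, with 2 of 18 pairs over 0.1. In 12 of 36 combinations of a library with another group, it correlated best with its own number, and no library did so in all other groups. With 3 libraries per group, these values cannot tell whether same-numbered libraries share a mouse or culture. With 1 replicate block over all groups 9767 genes passed in WT senescence, against 9795, and no member changed its call. The replicate block within each genotype compared the genotypes at the fitted level of replicate 1 only, and not by their group means. Its counts between genotypes therefore do not show an effect of blocking on the difference of the means. There 740 genes passed and 219 were called between controls, and 1958 passed between senescent groups. Cdkn1b and Cdkn2b between controls (0.25 and 0.57) did not pass, leaving 2 members higher.

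Cdkn2a rests on 62 to 370 counts per library. Its WT interval of -0.60 to 0.38 took in changes of both signs, so that neither a fall nor a rise within it was excluded. The width of the interval reflects 3 libraries per group at this depth and spread, and the smallest detectable change was not estimated.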
